A study of Mus musculus with 6 samples.

Results

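The 9 genes described here encode platelet proteins made by megakaryocytes, the large marrow cells that shed platelets: *Pf4*, *Ppbp*, *Vwf*, *Treml1*, *Itga2b*, *Gp1ba*, *Gp1bb*, *Gp9* and *Gp5*. They were chosen by gene symbol, with no threshold on a measured value but with earlier results of these data known. All 9 were found among the 14992 genes of the count table. All 9 also passed the filter on low counts that left 12806 genes for testing. Whole marrow of Dnmt3a knockout mice was transplanted into irradiated C57BL/6 recipients, and the recipients received a PI3Kalpha/beta inhibitor at 75 mg/kg or vehicle for 21 days before marrow was harvested for bulk RNA-seq. The inhibitor group held 3 libraries, numbered 1, 3 and 5 in the labels, and the vehicle group held 3 libraries, numbered 1, 2 and 3. Both groups carried the Dnmt3a knockout and the transplant, and the labels call the transplanted cells leukaemic; no wild-type marrow was compared. The labels mark the inhibitor libraries Bay, with no fuller compound name, and state no recipient age. Nor do the labels say that each library came from its own mouse, so each p-value speaks only of spread among the 6 libraries, which may be technical.

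Megakaryocytes grow under the hormone thrombopoietin, and transcription factors of the GATA, ETS and NF-E2 families drive their late genes. Platelets released from them stop bleeding: the GPIb-IX-V receptor catches von Willebrand factor on a damaged vessel wall, and the integrin alphaIIb-beta3 then binds fibrinogen and joins platelets to each other. Alpha-granules store proteins for release, among them the chemokines encoded by *Pf4* and *Ppbp*. PI3Kalpha and PI3Kbeta are lipid kinase isoforms that act below surface receptors, and the beta isoform is known for its part in platelet activation. In bulk marrow RNA, fewer megakaryocytes or platelets and less RNA in each of them cannot be told apart.

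RefSeq promoter windows, which run from 250 bases before to 50 bases after the annotated start, were found for 8 of the 9 genes on build GRCm38.p6, all but *Vwf*. Each window was searched on both strands for a GATA motif, AGATAA or its reverse complement TTATCT, and an ETS motif, GGAAGT or its reverse complement ACTTCC, with no overlap between matches in the stretches printed below. A GATA motif was present in 2 of the 8 windows, *Pf4* and *Gp5*, against 11.18% of 32851 promoters of the same length. An ETS motif was present in 5 of the 8, *Pf4*, *Ppbp*, *Itga2b*, *Gp9* and *Gp5*, against 23.77% of all promoters. Both motifs were found in *Pf4* and *Gp5*, against 2.429% of all promoters, and neither in the windows of *Treml1*, *Gp1ba* and *Gp1bb*. A match describes letters and is not evidence of a bound site.

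*Pf4* and *Ppbp* were chosen as neighbours with unlike profiles, and *Gp5* because it carries both motifs before its start. Shown are 3 stretches of 250 bases that end just before the annotated start. They lie at chr5:90772185-90772434 on the plus strand for *Pf4*, chr5:90768268-90768517 on the plus strand for *Ppbp* and chr16:30310782-30311031 on the minus strand for *Gp5*. Letters are 5′ to 3′ on the gene's strand, with the motifs in capitals. The GATA motif of *Pf4* lies in the 50 bases after its start and is outside the stretch printed.
Pf4: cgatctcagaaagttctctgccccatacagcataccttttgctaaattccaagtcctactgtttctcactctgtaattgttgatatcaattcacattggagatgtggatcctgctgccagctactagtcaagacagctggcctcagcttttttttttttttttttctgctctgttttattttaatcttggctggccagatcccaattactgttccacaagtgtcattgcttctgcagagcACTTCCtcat
Ppbp: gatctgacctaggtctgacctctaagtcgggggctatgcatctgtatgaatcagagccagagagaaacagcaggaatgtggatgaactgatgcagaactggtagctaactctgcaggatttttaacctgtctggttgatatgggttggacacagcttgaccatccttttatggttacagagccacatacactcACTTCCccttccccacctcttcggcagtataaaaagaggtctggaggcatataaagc
Gp5: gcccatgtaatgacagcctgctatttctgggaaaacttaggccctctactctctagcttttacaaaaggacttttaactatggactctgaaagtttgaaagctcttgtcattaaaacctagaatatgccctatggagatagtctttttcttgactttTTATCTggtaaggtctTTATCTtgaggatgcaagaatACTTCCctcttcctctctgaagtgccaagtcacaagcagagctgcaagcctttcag

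The libraries held 28198638 to 59384880 counts assigned to genes, and no member had fewer than 24 counts in a library. Library vehicle 1 stood apart in markers of other cell types: 14 macrophage markers summed to 741, 1084 and 971 CPM (counts scaled to a library of 1000000) in inhibitor libraries 1, 3 and 5, against 9831, 2562 and 2949 CPM in vehicle libraries 1, 2 and 3. Erythroid markers, 15 genes, summed to 1705, 3515 and 3862 CPM in the inhibitor libraries and to 8273, 2599 and 2843 CPM in the vehicle libraries. Endothelial markers, 14 genes, summed to 103, 113 and 135 CPM in the inhibitor libraries and to 237, 112 and 125 CPM in the vehicle libraries. None of these marker genes was at 0 in all 6 libraries. *Dnmt3a* itself had 20.2, 15.4 and 15.5 CPM in the inhibitor libraries and 24.9, 17.3 and 18.9 CPM in the vehicle libraries; which exons the counts fall in is not known, so these values do not check the knockout. Values below are always given in the order inhibitor 1, 3 and 5, then vehicle 1, 2 and 3, on a library size scaled by the trimmed mean of M-values.

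None of the 9 platelet genes passed the test between inhibitor and vehicle (edgeR quasi-likelihood test, Benjamini-Hochberg adjusted p under 0.05 over 12806 genes), and none had an unadjusted p under 0.05. Over all tested genes, 0.633% were called higher in the inhibitor group and 1.19% lower, and at an unadjusted p under 0.05 the shares were 9.68% higher and 11.9% lower. The estimates were positive for 8 genes and negative for *Pf4*, with a median log2 fold change of 0.74 beside 0.000931 over all tested genes. The groups overlapped for all 9 members, whereas 30.7% of all tested genes had groups that did not overlap. What the members shared was a wide spread between libraries of the same group: their median pooled standard deviation was 0.96 in log2(CPM + 1), beside 0.21 over all tested genes. Adjusted p-values ran between 0.310 for *Treml1* and 0.645 for *Itga2b*; values this high do not show that the groups were alike.

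**Figure D1:**
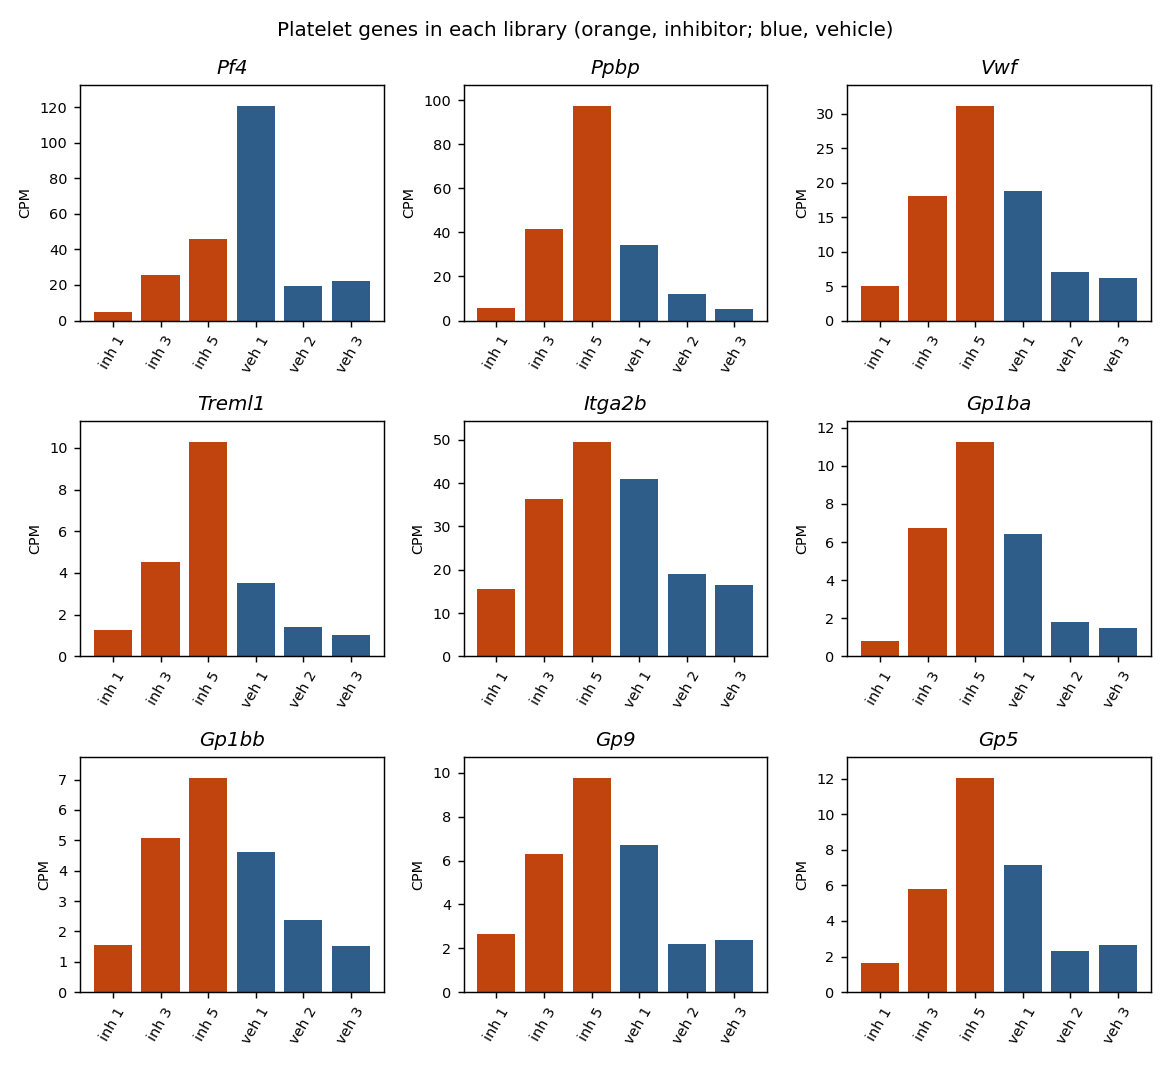
CPM of each platelet gene in the 6 libraries, 1 bar a library, with orange for inhibitor and blue for vehicle; each panel has its own linear axis starting at 0. Inhibitor 5 is the tallest bar in 8 panels, and vehicle 1 is the tallest in the *Pf4* panel.

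The alpha-granule chemokines came first by level per length. *Pf4*, or CXCL4, is a heparin-binding chemokine, encoded at chr5:90772435-90773383 on the plus strand (GRCm38, GENCODE M21). Its CPM was 5.04, 25.5 and 45.8 in the inhibitor libraries and 120, 19.4 and 22.4 in the vehicle libraries. Vehicle 1 was the highest library and inhibitor 1 the lowest, and the other 4 lay between 19.4 and 45.8. Means were 25.5 ± 20.4 CPM with inhibitor and 54.1 ± 57.5 CPM with vehicle (SD, n = 3 each), and the log2 fold change was -1.08 ± 0.91 (SE; edgeR adjusted p = 0.522). Without vehicle 1 the estimate was 0.28 ± 0.68 (edgeR adjusted p = 0.827), so that library set the sign.

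*Ppbp* encodes the precursor of the neutrophil-attracting chemokine CXCL7 and lies at chr5:90768518-90770063, its end 2371 bases before *Pf4* on the same strand. Its CPM was 5.89, 41.5 and 97.2 in the inhibitor libraries and 34.3, 11.9 and 5.28 in the vehicle libraries. Inhibitor 5 was the highest, vehicle 3 the lowest, and inhibitor 1 was close to vehicle 3. Means were 48.2 ± 46.0 CPM with inhibitor and 17.2 ± 15.2 CPM with vehicle (SD, n = 3 each), and the log2 fold change was 1.496 ± 0.98 (edgeR adjusted p = 0.409). That estimate was 0.48 without inhibitor 5 and 2.51 without vehicle 1.

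*Vwf*, at chr6:125546774-125686679 on the plus strand, encodes von Willebrand factor, which endothelial cells also make. It had 4.94, 18.1 and 31.1 CPM in the inhibitor libraries and 18.7, 7.04 and 6.11 CPM in the vehicle libraries. Inhibitor 1 was the lowest of the 6 and inhibitor 5 the highest, with inhibitor 3 close to vehicle 1. Its log2 fold change was 0.77 ± 0.67 (edgeR adjusted p = 0.539). The summed endothelial markers given above were highest in vehicle 1, while *Vwf* was highest in inhibitor 5 and spanned 6.29-fold among the inhibitor libraries; the part of endothelial cells in its values was not tested.

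*Treml1*, at chr17:48359916-48367176 on the plus strand, encodes TLT-1, a receptor held in alpha-granule membranes until platelets are activated. In CPM it had 1.27, 4.54 and 10.3 in the inhibitor libraries and 3.51, 1.41 and 1.03 in the vehicle libraries. Inhibitor 3 and inhibitor 5 were above every vehicle library, and inhibitor 1 was below 2 of the 3. Means were 5.36 ± 4.56 CPM with inhibitor and 1.98 ± 1.33 CPM with vehicle (SD, n = 3 each). The log2 fold change of 1.45 ± 0.76 had the smallest p of the 9 members (unadjusted 0.0971, edgeR adjusted p = 0.310). In the authors' deposited table, *Treml1* was the single member with a p under 0.05, at 0.0349 and an adjusted p above 0.05.

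*Itga2b*, at chr11:102453297-102470122 on the minus strand, encodes integrin alphaIIb, the chain of the fibrinogen receptor that marks the megakaryocyte lineage from early on. Inhibitor libraries had 15.6, 36.2 and 49.4 CPM, against 40.9, 19.0 and 16.4 CPM in vehicle libraries. It had the narrowest spread of the 9, 3.17-fold within the inhibitor group and 2.49-fold within the vehicle group, and the smallest estimate, 0.41 ± 0.48 in log2 (edgeR adjusted p = 0.645). Its partner *Itgb3*, integrin beta3, had 53.5, 70.1 and 103 CPM with inhibitor and 58.1, 42.5 and 41.7 CPM with vehicle, a log2 fold change of 0.67 ± 0.26 (edgeR adjusted p = 0.188). *Itgb3* is also transcribed outside the megakaryocyte lineage. *Itga2b* overlaps the small RNA gene *Gm23563* on the same strand, so reads of the overlap are uncertain.

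The GPIb-IX-V complex is encoded by the other 4 genes. *Gp1ba*, the chain that binds von Willebrand factor, at chr11:70639122-70642036 on the plus strand, had 0.781, 6.74 and 11.2 CPM with inhibitor and 6.44, 1.80 and 1.496 CPM with vehicle. Inhibitor 1 was the lowest library, at 24 counts and an exact 95% Poisson interval of 0.500 to 1.16 CPM, which covers counting error only. Its log2 fold change was 0.96 ± 0.90 (edgeR adjusted p = 0.568). *Gp1bb*, the disulfide-linked partner chain, at chr16:18620317-18622403 on the minus strand, had 1.56, 5.06 and 7.05 CPM with inhibitor and 4.62, 2.38 and 1.53 CPM with vehicle. Vehicle 3 and inhibitor 1 were the lowest libraries and nearly equal, and the log2 fold change was 0.69 ± 0.60 (edgeR adjusted p = 0.534). *Gp1bb* overlaps *Sept5* and *Gm49601* on the same strand, which leaves its counts uncertain where reads are shared.

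*Gp9*, the chain needed for surface assembly of the complex, at chr6:87778072-87779768 on the plus strand, had 2.67, 6.29 and 9.77 CPM with inhibitor and 6.70, 2.21 and 2.37 CPM with vehicle. Vehicle 2 was its lowest library and inhibitor 5 its highest. The log2 fold change was 0.74 ± 0.58 (edgeR adjusted p = 0.495). *Gp5*, a chain cleaved by thrombin, at chr16:30307685-30310779 on the minus strand, had 1.66, 5.81 and 12.03 CPM with inhibitor and 7.16, 2.29 and 2.64 CPM with vehicle. Inhibitor 1 was the lowest and inhibitor 5 the highest, and the estimate was 0.70 ± 0.72 in log2 (edgeR adjusted p = 0.602). The 4 chains gave log2 estimates between 0.69 and 0.96, which moved to between -0.10 and 0.27 without inhibitor 5 and to between 1.24 and 1.94 without vehicle 1.

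**Figure D2:**
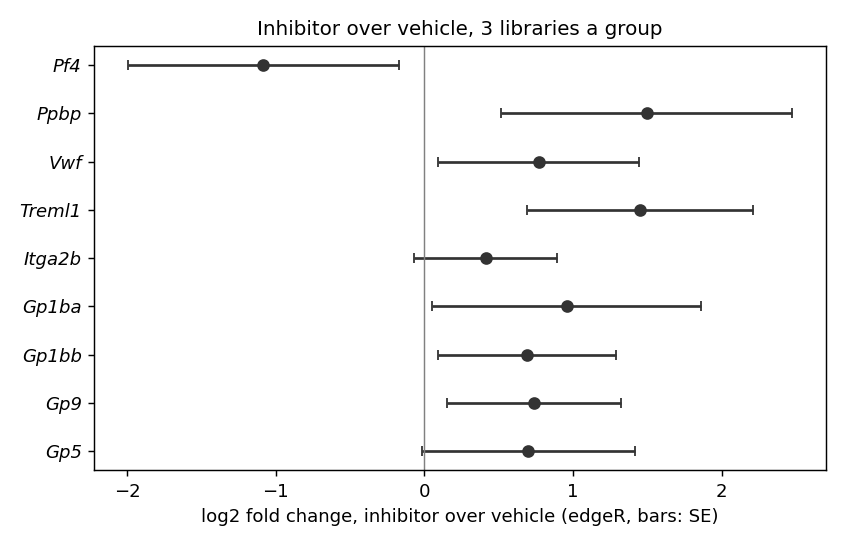
Log2 fold change of each gene, inhibitor over vehicle, from the edgeR fit, with bars of 1 standard error derived from the F statistic. The order from top to bottom is chemokines, other alpha-granule genes, integrin and GPIb-IX-V genes. The *Pf4* estimate, at -1.08, is left of 0 and the other 8 are right of it.

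The same libraries were high or low for most members. Vehicle 1 was the highest vehicle library in 9 of 9 members, and inhibitor 5 was above every vehicle library in 8 of 9. For neither count was the share over all tested genes computed. The summed erythroid, macrophage and endothelial markers were also highest in vehicle 1, so a high vehicle 1 was not particular to the members. Inhibitor 1 was the lowest inhibitor library and inhibitor 5 the highest in all 9 members, as in 26.1% of all tested genes. Library numbers carry no order, so this describes which libraries were low. Summed over the 9 genes, levels were 39.4, 150 and 274 CPM with inhibitor and 243, 67.4 and 59.3 CPM with vehicle.

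Spread within the inhibitor group was looked at after the values were seen. The highest inhibitor library was at least 4-fold over the lowest for 7 of 9 members, beside 236 of 12793 genes with counts in all 3 inhibitor libraries, or 1.84%. *Ppbp* spanned 16.5-fold, *Gp1ba* 14.4-fold, *Pf4* 9.09-fold, *Treml1* 8.10-fold, *Gp5* 7.25-fold, *Vwf* 6.29-fold and *Gp1bb* 4.51-fold; *Gp9* at 3.66-fold fell short, as did *Itga2b*. Among vehicle libraries, 3 of 9 members spanned at least 4-fold, beside 4.83% of all genes. Inhibitor 1 and inhibitor 5 were the ends of this range in every member. Without inhibitor 1, inhibitor 5 was 1.37-fold to 2.35-fold over inhibitor 3 and no member of 9 reached 4-fold. Without inhibitor 5, inhibitor 3 was 5.06-fold over inhibitor 1 for *Pf4*, 7.04-fold for *Ppbp* and 8.63-fold for *Gp1ba*. The other members then fell short of 4-fold, at 2.32-fold to 3.66-fold. At least 2-fold between inhibitor 5 and inhibitor 3 was seen in 3 of 9 members and in 4.79% of all genes. Erythroid markers were also lowest in inhibitor 1, at 1705 CPM, but their highest library was vehicle 1; their part in the members' spread was not tested.

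**Figure D3:**
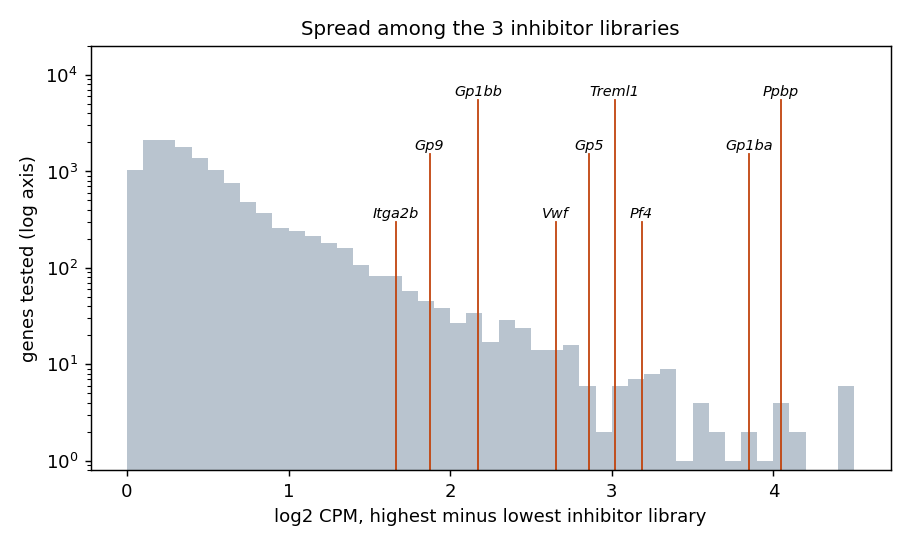
Number of tested genes (log axis) by the difference in log2 CPM between the highest and lowest inhibitor library, with the 9 members as labelled lines. The members lie between 1.66 and 4.05, beyond the median of 0.36 over all genes; the last bar holds every gene of 4.4 or more.

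Per length, as RPKM (CPM per kilobase) computed from the table's gene lengths, the members' median levels over 6 libraries ran in the order *Pf4* 40.8, *Ppbp* 21.4, *Itga2b* 8.03, *Gp9* 5.52, *Treml1* 1.97, *Gp5* 1.92, *Gp1bb* 1.68, *Gp1ba* 1.51 and *Vwf* 1.42 RPKM. Each neighbouring pair in that order overlapped across libraries: *Pf4* ranged between 8.57 and 205 RPKM, and *Ppbp* between 4.89 and 90.0 RPKM. *Gp9* was above the other 3 chains of its complex in each of the 6 libraries.

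A further comparison, also chosen after the values were seen, removed the shared library level by taking each member's log2 CPM minus the mean of the other 8 in the same library. *Pf4* was 0.88, 1.27 and 1.30 above that mean with inhibitor, against 3.54, 2.33 and 2.87 above it with vehicle. The groups did not overlap, and the inhibitor minus vehicle difference was -1.76 (two-sided exact permutation over libraries, p = 0.1, which is as low as this design goes; Benjamini-Hochberg adjusted p = 0.45 over 9 members). Leaving out each library in turn gave differences between -2.05 and -1.45; with groups that do not overlap, the sign could not change. *Treml1* was the other member whose groups did not overlap, at -1.36, -1.53 and -1.13 with inhibitor and -2.20, -1.92 and -2.12 with vehicle, a difference of 0.75 (exact two-sided permutation p = 0.1; adjusted p = 0.45). These differences are not independent, because each member is part of the reference of the others. The lower relative *Pf4* with inhibitor thus raised the differences of the other 8, *Treml1* among them. Over all genes, 4.19% of 12775 with counts in every library did not overlap once taken relative to the mean of the 9 members. That subtraction adds the members' library swings to genes that do not share them, which favours overlap. This share is therefore not a base rate for the members. The other 7 members overlapped, *Ppbp* with a difference of 0.72 (exact permutation p = 0.3) and the other 6 with differences between -0.15 and 0.25.

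The neighbours *Pf4* and *Ppbp* were also set against each other, after their values were seen. The ratio of *Pf4* to *Ppbp* CPM was 0.856, 0.615 and 0.471 with inhibitor and 3.51, 1.63 and 4.25 with vehicle. *Ppbp* exceeded *Pf4* in every inhibitor library, and *Pf4* exceeded *Ppbp* in every vehicle library; the log2 difference was -2.21 (exact two-sided permutation p = 0.1, the smallest possible). Some tissue macrophages of mice also transcribe *Pf4*. All 14 macrophage markers had lower estimates at unadjusted p under 0.05, beside 11.9% of all tested genes, and 5 of them were past the adjusted threshold (*Spic*, *Mertk*, *Cd5l*, *Adgre1* and *Vsig4*); their summed CPM, given above, was lower in every inhibitor library than in any vehicle library, as *Pf4* relative to the other members was. Whether macrophage RNA takes part in the *Pf4* values was not tested.

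**Figure D4:**
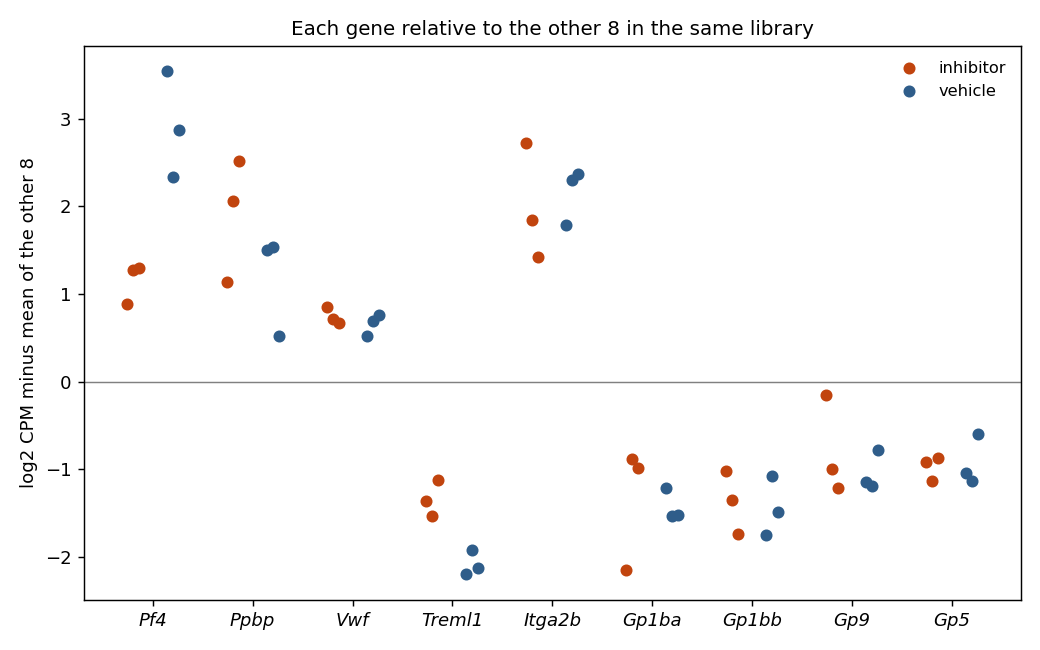
Log2 CPM of each gene minus the mean of the other 8 in the same library, 1 point a library, inhibitor left (orange) and vehicle right (blue) of each gene. *Pf4* and *Treml1* are the genes with no overlap between the colours, *Pf4* lower and *Treml1* higher with inhibitor.

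Other genes of the cluster on chromosome 5 encode chemokines that attract neutrophils. *Cxcl2* had 4.26, 4.61 and 6.20 CPM with inhibitor and 138, 7.35 and 11.2 CPM with vehicle, a log2 fold change of -3.37 ± 1.11 (edgeR adjusted p = 0.139). *Cxcl3* had 0.228, 0.0744 and 0.340 CPM with inhibitor and 7.84, 0.138 and 0.286 CPM with vehicle (edgeR adjusted p = 0.230). Both were highest in vehicle 1, as *Pf4* was, while *Ppbp* was not. *Cxcl1* and *Cxcl5* were below the filter and not tested. Of the 5 neighbours of *Treml1* in the Trem cluster, receptors mostly of myeloid cells, *Treml4* fell to 14.2, 13.1 and 10.6 CPM with inhibitor, against 42.9, 25.3 and 28.8 CPM with vehicle (log2 fold change -1.36 ± 0.23, edgeR adjusted p = 0.0428). *Trem3* had a log2 estimate of 1.02 ± 0.21 (edgeR adjusted p = 0.0611), *Trem2* -0.87 ± 0.19 (0.0661), *Treml2* 0.37 ± 0.29 (0.495) and *Trem1* 0.08 ± 0.36 (0.917).

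Platelet genes outside the 9 were read from lists of the pathway. Of 24 platelet receptor and adhesion genes tested, 1 was called higher and 1 lower, with a median log2 fold change of 0.31. *Cd9*, a tetraspanin on platelets and many other cells, rose to 349, 334 and 312 CPM with inhibitor, against 148, 212 and 185 CPM with vehicle (0.87 ± 0.16, edgeR adjusted p = 0.0473). *P2ry12*, the ADP receptor of platelets that microglia and some macrophages also carry, fell to 7.90, 7.03 and 8.10 CPM with inhibitor, against 45.04, 19.3 and 22.4 CPM with vehicle (-1.91 ± 0.33, edgeR adjusted p = 0.0428). *Selp*, P-selectin of alpha-granules, had 54.4, 52.6 and 51.1 CPM with inhibitor and 38.1, 31.2 and 31.1 CPM with vehicle (0.65 ± 0.13, edgeR adjusted p = 0.0537). *Selp*, *Cd9* and *P2ry12* spanned 1.06-fold, 1.12-fold and 1.15-fold among the inhibitor libraries, narrower than any member. They were named for a small p, which favours a narrow spread. Of the 24 genes of this list, 6 spanned at least 4-fold among the inhibitor libraries, beside 1.84% of all genes. So did 4 of the 8 other megakaryocyte markers described below, and 4 of 19 platelet signalling and eicosanoid genes.

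Granule content and biogenesis had 25 tested genes, 1 of them lower, with a median of 0.03. *Pdgfb*, a growth factor of platelets and other cells, fell to 1.04, 1.67 and 2.66 CPM with inhibitor, against 9.72, 6.21 and 7.46 CPM with vehicle (-2.11 ± 0.37, edgeR adjusted p = 0.0445). *Slc18a2*, the monoamine transporter of dense granules, had an estimate of 0.85 ± 0.21 (adjusted p = 0.0769), and *Mmrn1*, multimerin of alpha-granules, 1.81 ± 0.52 (adjusted p = 0.106). The 4 called genes *Cd9*, *P2ry12*, *Pdgfb* and *Treml4* all lost their call when any 1 inhibitor library or vehicle 3 was left out, and in limma voom. The remaining lists had no called gene: megakaryocyte transcription factors (15 tested, median 0.03), thrombopoietin signalling (7 tested, median 0.06), cytoskeleton and platelet formation (18 tested, median 0.13) and platelet signalling and eicosanoids (19 tested, median -0.04). *Nfe2*, a factor needed for platelet release, had 409, 370 and 319 CPM with inhibitor and 225, 250 and 265 CPM with vehicle (0.57 ± 0.14, edgeR adjusted p = 0.0813). Its groups did not overlap, as in 30.7% of all tested genes. *Nfe2* was highest in inhibitor 1, which was the lowest inhibitor library for all 9 members.

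The list of other megakaryocyte markers held 8 genes, among them *Itgb3*, *Gp6*, *Tubb1*, *Clec1b* and *Gata1*. They were all detected, 0 of 8 were called, and their median log2 fold change was 0.57; 2 had higher and 1 had lower estimates at unadjusted p under 0.05, beside 9.68% and 11.9% of all tested genes. *Gp6*, the collagen receptor, had 0.195, 1.12 and 2.38 CPM with inhibitor and 0.969, 0.276 and 0.159 CPM with vehicle. *Clec1b*, the podoplanin receptor CLEC-2, which mouse myeloid cells can also carry, had 5.50, 9.30 and 12.97 CPM with inhibitor and 53.6, 18.1 and 15.8 CPM with vehicle (-1.65 ± 0.53, edgeR adjusted p = 0.133). Its groups did not overlap, as in 30.7% of all tested genes. *Gata1*, shared with the erythroid lineage, had 21.6, 49.7 and 50.8 CPM with inhibitor and 91.5, 33.0 and 34.7 CPM with vehicle.

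Likeness of profile was measured as the root mean square difference between a gene's centred log2(CPM + 1) over the 6 libraries and the mean of the members, among 9691 non-member genes averaging 5 CPM or more. The 5 nearest were *Mrvi1* (0.18), *Alox12* (0.19), *Tubb1* (0.24), *Myl9* (0.25) and *Ache* (0.28), beside a median of 0.92 over these genes. *Alox12*, the platelet 12-lipoxygenase, had 1.72, 8.56 and 18.3 CPM with inhibitor and 13.5, 3.84 and 2.69 CPM with vehicle. *Mrvi1* encodes a target of cGMP-dependent kinase in platelets, *Myl9* a regulatory light chain of myosin, and *Ache* acetylcholinesterase, which rodent megakaryocytes make. *Tubb1*, the beta-tubulin of the platelet marginal band, had 3.61, 12.5 and 25.4 CPM with inhibitor and 24.3, 6.44 and 4.34 CPM with vehicle. None of the 5 was called. Among the members, *Vwf* was nearest to the mean of the other 8, at 0.07, followed by *Gp5* at 0.16 and *Gp1ba* at 0.19, and *Ppbp* at 0.70 and *Pf4* at 0.93 were farthest.

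**Figure D5:**
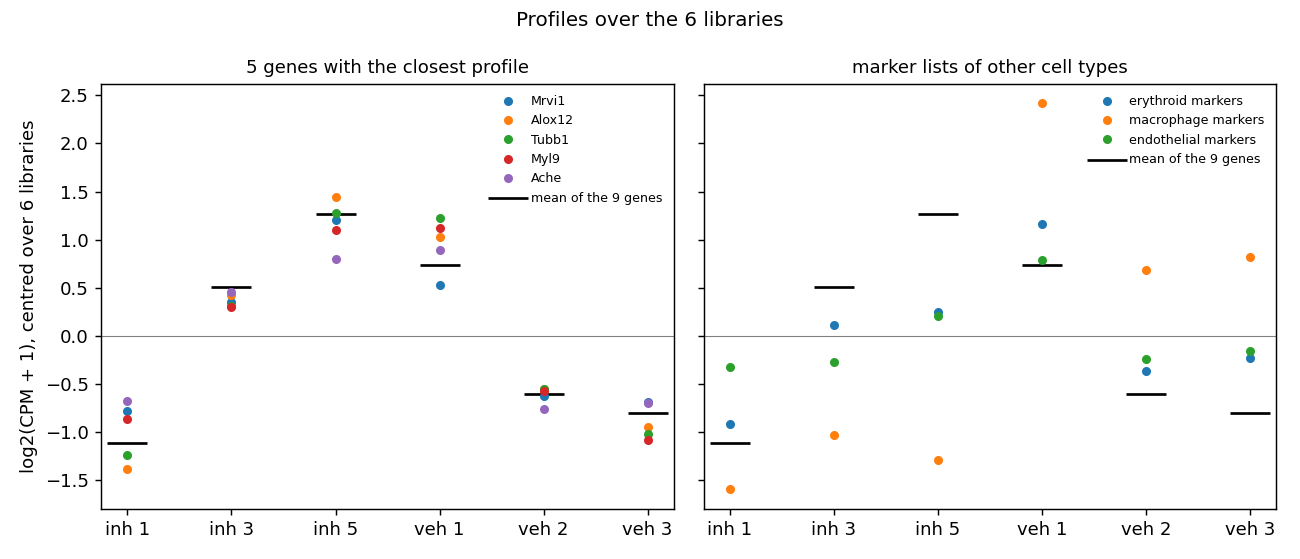
Centred log2(CPM + 1) in each library for the mean of the 9 members (black bars), beside the 5 nearest genes (left) and the mean of 3 marker lists (right). The member mean was lowest in inhibitor 1, at -1.11, and highest in inhibitor 5, at 1.27, whereas the marker lists were highest in vehicle 1.

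Voom with sample quality weights, 1 of the alternative tests, was the setting that called members: *Treml1* (log2 fold change 1.90, limma adjusted p = 0.0429), *Itga2b* (0.94, 0.0438) and *Gp9* (1.36, 0.0272) were higher with inhibitor, while 1374 genes were called higher and 1483 lower over all genes. Its weights were 0.633, 4.395 and 0.928 for inhibitor 1, 3 and 5 and 0.161, 1.495 and 1.61 for vehicle 1, 2 and 3, so it leaned on inhibitor 3 and least on vehicle 1. Leaving vehicle 1 out altogether gave positive estimates for all 9, a median log2 fold change of 1.45, and no member called (smallest edgeR adjusted p = 0.107; 4 of 9 at unadjusted p under 0.05). Leaving out inhibitor 5 gave a median of 0.23, and leaving out inhibitor 1 gave 1.17, with no member called in either.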

How the data were processed

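Marrow RNA of 6 libraries (3 inhibitor, 3 vehicle) was extracted with a column kit, amplified with SMART-Seq v4 and made into Nextera XT libraries, which do not mark strand, per the labels' protocols. STAR, featureCounts and mm10 are named in the submitters' processing notes; no version of any is stated. The deposited table holds raw counts per gene, with the authors' log2 fold changes and p-values. From the counts, genes were filtered with filterByExpr, scaled by TMM and tested with edgeR 4.0.16 (R 4.3.3), all 6 libraries and group alone; CPM and RPKM were computed from the same scaling. Standard errors of edgeR estimates were derived from the test, as the absolute log2 fold change over the square root of the F statistic. Alternatives used DESeq2 1.42.0, limma 3.58.1, other filters, a replicate block and leaving out each library. The 9 members and all gene lists were chosen with earlier results of these data known. Named genes were the members, in each pathway list every called gene (where 6 or fewer) and the up to 4 genes with the smallest p, from which examples are given, every tested gene of the 2 neighbour lists, called marker genes, and the 5 nearest profiles. Other megakaryocyte markers were named after their values were seen. Libraries held 28198638 to 59384880 counts. Stem and progenitor markers (12 tested) had *Erg* and *Kit* called higher and none lower, and basophil and mast cell markers (9 tested) had none called.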

Additional observations from a re-analysis of the deposited data

How the results depend on the processing

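Of 142 alternative values of the members' log2 fold changes, 132 kept their direction and side of the threshold, 7 reversed and 3 passed it. No member was called in the main fit, so staying uncalled counted as the same side. Size did not enter the count: *Ppbp* kept its direction at 0.23 with the replicate block and at 2.51 without vehicle 1. The 142 include the setting of adjusted p under 0.10, which reuses the main fit, so direction could not change there. Voom with quality weights called 3 members higher, where the main test called 0, and gave *Pf4* a log2 fold change of 0.0521. With the replicate block the estimates were -0.16 for *Vwf*, -0.12 for *Itga2b*, -0.34 for *Gp1ba* and -0.46 for *Gp5*, with no member called. The groups share the numbers 1 and 3, so inhibitor 5 and vehicle 2 each stood alone in a block. Those libraries therefore added nothing to the blocked estimates. Deviations of same-numbered libraries correlated at -0.514 and -0.103, too few pairs to decide whether such libraries share a batch. The labels tie no inhibitor library to a vehicle library. Leaving out single libraries gave *Pf4* estimates between -1.81, without inhibitor 5, and 0.28, without vehicle 1, and *Gp5* estimates between -0.10, without inhibitor 5, and 1.397, without vehicle 1. The 4 called genes of the 8 pathway lists became 17 with the DESeq2 Wald test, 0 with limma voom, 33 with quality weights, 10 at adjusted p under 0.10, 0 with the replicate block, and 0 to 13 without 1 library; the cause was not tested. Over all genes, the calls of 81 higher and 153 lower became 628 and 926 with DESeq2, 30 and 55 with limma voom, 422 and 634 at adjusted p under 0.10, 0 and 7 with the block, 401 and 633 without vehicle 1, and 0 without vehicle 3 or without any 1 inhibitor library. With the filter of at least 5 CPM in 3 libraries, 7 members were left to test. Low counts limit *Gp1ba*, at 24 counts in inhibitor 1.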
